A study of Mus musculus with 8 samples.

Results

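The genes described here are 43 antiviral interferon-stimulated genes and sensors: effector proteins, RNA and DNA sensors, interferon receptors, and the STAT and IRF factors that carry the signal. They were taken by gene symbol, leaving aside the IRG and GBP GTPases, and 40 of the 43 had at least 1 probe set annotated to them alone, 68 of the 45037 probe sets in the table. Fraction B pro-B cells, early B-cell progenitors of bone marrow sorted as B220+ CD43+ HSA+ BP-1-, came from 4 menin-deficient mice, which carried floxed Men1 and the Cre recombinase gene (Rag1-cre;MenF/F), and 4 control mice, which carried floxed Men1 without Cre (MenF/F), all 2 to 3 weeks old. No other treatment is given in the labels. Cre is named for Rag1, a gene of lymphocyte progenitors, and was present in every menin-deficient mouse and no control, so what Cre does and what menin loss does cannot be told apart here. Total RNA of each mouse was amplified and hybridised to 1 Affymetrix expression array, and the values deposited are log2 expression levels that start at 2.08. A difference of 1 on the log2 scale is a 2-fold difference.

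Interferons are secreted proteins that cells release when their sensors meet foreign nucleic acid. Type I interferons bind the receptor made of Ifnar1 and Ifnar2, and type II interferon binds Ifngr1 and Ifngr2. Type I signalling brings Stat2 and Irf9 into a complex that binds the interferon-stimulated response element (ISRE) in promoters of antiviral genes, whereas type II signalling acts through the gamma-activated sequence (GAS). Many interferon-stimulated genes are transcribed at a low level without infection, and several encode the sensors and factors of the pathway itself. Men1 encodes menin, a chromatin protein that joins the histone methyltransferase MLL at its target genes.

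Promoter sequences are shown first, because the ISRE is the feature that type I signalling reads. RefSeq promoters (GRCm38.p6, 250 bases before to 50 bases after each start) were at hand for 33 of the 43 genes. An ISRE was searched as GAAA, any 2 bases and GAAA again, and a GAS as TTCNNNGAA, on both strands. At least 1 ISRE lay in the promoters of 13 of these 33 genes (39.4%), compared with 3.99% of 27025 genes in the table. At least 1 GAS lay in 10 of the 33 (30.3%), compared with 9.55%. The 2 motifs overlapped in Bst2, whose GAS starts 136 bases before the start and whose ISRE pair starts 130 bases before it. Below, 30 bases around the ISRE nearest to the start are printed for 4 genes that rose, Oas1a, Ifit1, Ifih1 and Ddx58, then for Oas1g, then for 5 that did not pass the threshold. Each is written 5′ to 3′ on the strand that reads GAAA, with the motif letters in capitals.
Oas1a, chr5:120907523-120907552, minus strand: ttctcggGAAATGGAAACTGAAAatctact
Ifit1, chr19:34640794-34640823, minus strand: tcagcagtgaGAAACTGAAActgagactgg
Ifih1, chr2:62646206-62646235, minus strand: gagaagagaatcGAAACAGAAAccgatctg
Ddx58, chr4:40239804-40239833, plus strand: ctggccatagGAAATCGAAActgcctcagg
Oas1g, chr5:120887609-120887638, minus strand: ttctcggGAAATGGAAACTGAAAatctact
Ifit3, chr19:34583397-34583426, minus strand: gaggaaagtaGAAACTGAAAcagacttaaa
Bst2, chr8:71537580-71537609, minus strand: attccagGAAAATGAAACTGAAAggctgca
Rsad2, chr12:26456553-26456582, plus strand: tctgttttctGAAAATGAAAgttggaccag
Stat2, chr10:128270266-128270295, minus strand: ctagggaaagGAAACTGAAAccagggtgcg
Eif2ak2, chr17:78882535-78882564, minus strand: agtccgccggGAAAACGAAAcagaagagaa
Oas1a and Oas1g carried the same 30 bases, with 2 overlapping copies of the motif. In Ifih1, Ddx58 and Eif2ak2 the motif lay just after the start, at base 33, base 3 and base 19 of the transcript.

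Irf1, Isg20 and Ifit2 rose with a GAS and no ISRE in their promoter windows, and Oas1a held both motifs. The 150 bases before the start are printed for Oas1a, Irf1 and Isg20 on the gene's strand, with ISRE and GAS letters in capitals.
Oas1a, chr5:120907526-120907675, minus strand: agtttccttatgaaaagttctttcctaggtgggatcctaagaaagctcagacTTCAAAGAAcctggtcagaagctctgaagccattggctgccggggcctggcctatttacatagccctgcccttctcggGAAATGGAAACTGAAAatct
Irf1, chr11:53769864-53770013, plus strand: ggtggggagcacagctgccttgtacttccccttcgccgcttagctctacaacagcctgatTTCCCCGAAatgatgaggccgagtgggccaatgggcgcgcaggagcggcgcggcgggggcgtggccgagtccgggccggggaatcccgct
Isg20, chr7:78913274-78913423, plus strand: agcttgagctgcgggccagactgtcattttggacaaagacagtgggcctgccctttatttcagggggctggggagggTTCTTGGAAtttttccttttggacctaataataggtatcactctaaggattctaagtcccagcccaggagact
The motifs did not sort the genes by outcome: an ISRE lay in 4 of 13 interferon genes that rose and in 6 of 16 that were tested and did not pass the threshold, and a GAS lay in 4 of 13 and 6 of 16. Over all tested genes with a promoter in the table, 59 of 357 with an ISRE rose (16.5%), as did 1472 of 9332 without one (15.8%). These motif counts are descriptions of the windows and carry no test.

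Men1, the targeted gene, averaged 8.15 ± 0.278 in menin-deficient and 9.54 ± 0.256 in control arrays (SD, n = 4 each, difference -1.39, adjusted p = 0.00391), and whether its probe sets lie inside the floxed part is not known from the labels. Markers of pro-B cells were high on all arrays: the mean over 14 of them was 14.2 to 14.3 in menin-deficient and 14.1 to 14.2 in control arrays, with 3 higher (Dntt, Igll1 and Blnk) and 1 lower (Rag1). Enpep, which encodes the BP-1 antigen that the sort excluded, was still read at 10.44 to 12.17 in menin-deficient and 10.63 to 11.75 in control arrays.

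Of the 43 genes, 39 were tested, and 19 rose and 0 fell in menin-deficient cells at a limma adjusted p under 0.05. Across all 11885 genes tested, 16.2% rose and 5.17% fell, so that a smaller share rose than among the interferon genes. At a limma adjusted p under 0.10, 22 of the 39 were higher and 2 lower, beside 23.2% and 7.29% of all tested genes. Differences were positive for 36 of the 39, and for 7844 of the 11885. The median difference of the 39 was 0.50, and that of all tested genes was 0.11. All 4 menin-deficient arrays lay above all 4 control arrays for 22 of the 39 genes, and below them for 1 (20.3% and 6.06% of all tested genes). The largest differences were in Oasl1, Mx1 and Oas1a, and 6 of the 19 rises were at least 2-fold. All 39 tested genes were above the low-value filter on at least 3 arrays of each group. That filter lay at 2.09 to 2.10, close to the floor of 2.08. The control arrays of Ifit1, at 2.09 to 2.14, passed it on 3 arrays, so passing it says little about detection near the floor. RNA was measured in bulk, and a change in the share of cells that express a gene cannot be told apart from a change in RNA per cell.

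**Figure D1:**
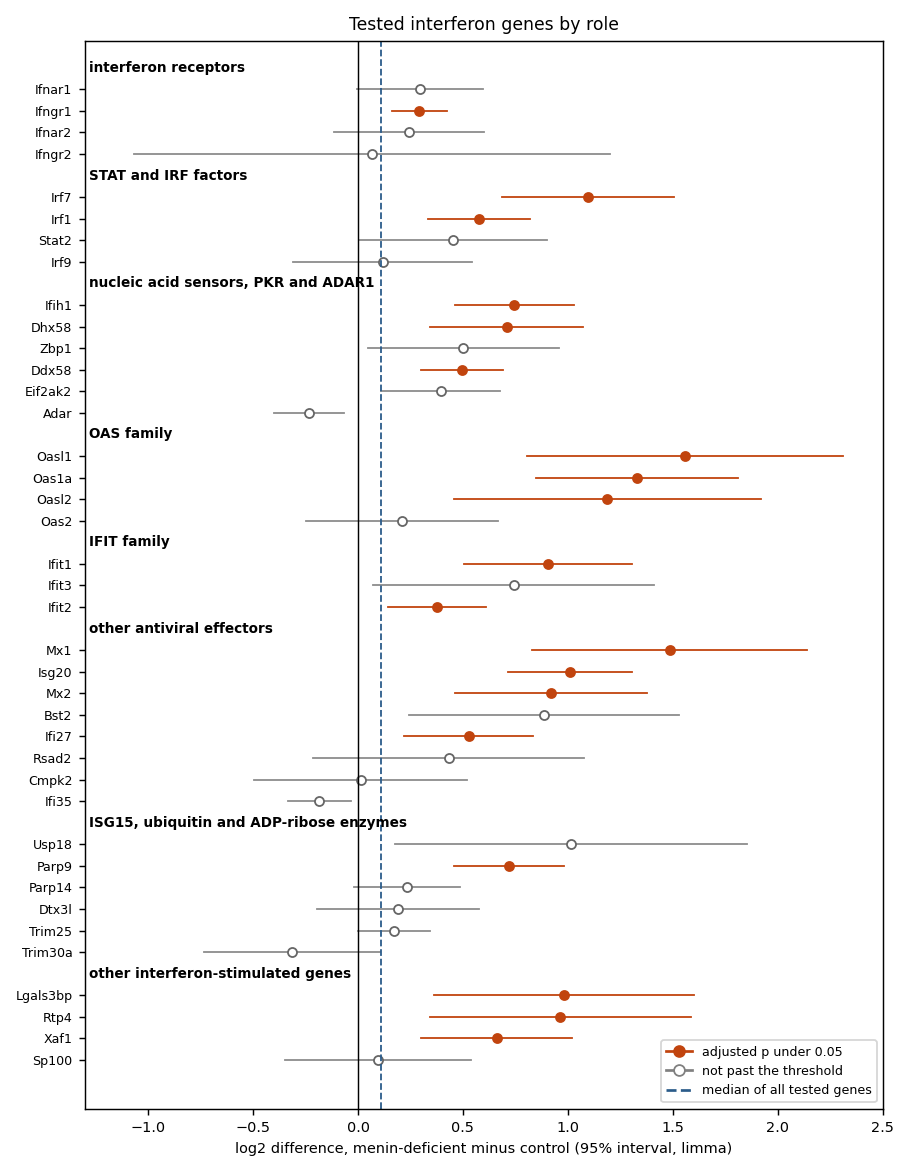
Log2 difference, menin-deficient minus control, of the 39 tested interferon genes grouped by role. Points are differences and bars their 95% intervals from limma (4 arrays in each group), filled where the adjusted p is under 0.05, and the dashed line is the median of all tested genes (0.11). The 19 filled points all lie right of 0, and the OAS family has the largest median, 1.26.

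Because the median of all tested genes was above 0, at 0.11, the counts depend on scaling. When each array was centred on its median tested gene, 13 of the 39 interferon genes were higher and 2 lower, against 7.67% and 8.17% of all genes, and rises made up 48.4% of all calls in place of 75.8%. The 13 were all among the 19 rises. Ifi27, Ifit2, Ifngr1, Lgals3bp, Rtp4 and Xaf1 lost their call, and Adar and Ifi35 became lower calls. The gap between the medians of the interferon genes and of all tested genes was 0.39 on either scale. Centring could not change it, because it shifts the differences of all genes alike.

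**Figure D2:**
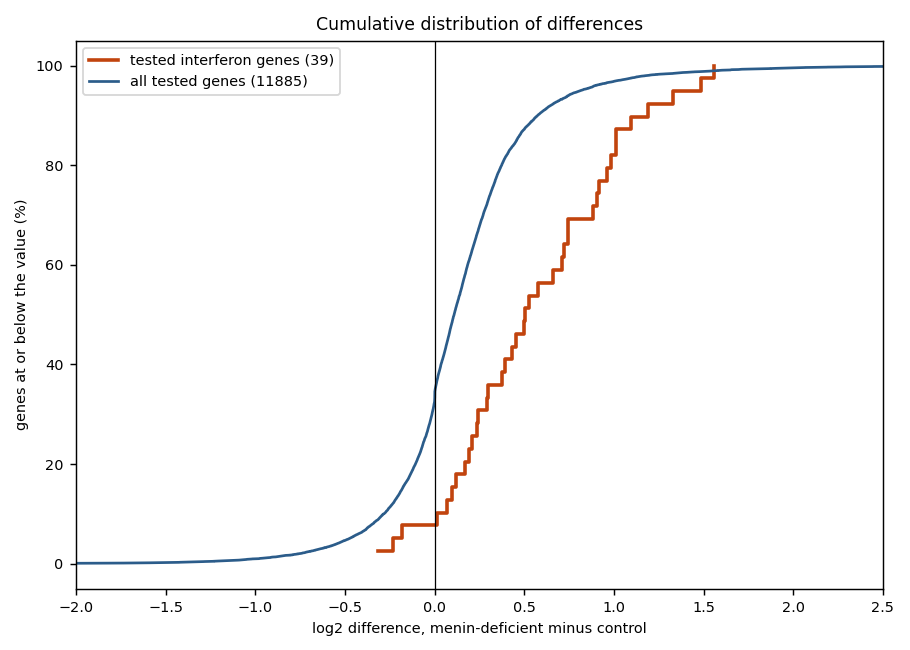
Cumulative share of genes (%) at or below each log2 difference, menin-deficient minus control, for the 39 tested interferon genes and all 11885 tested genes. The curve of the interferon genes lies to the right along most of its length, with a median of 0.50 against 0.11.

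Markers of other blood cells that produce or answer interferon were read against the 16.2% of all tested genes that rose. For plasmacytoid and conventional dendritic cells the share that rose at an adjusted p under 0.05 was close to it. At an unadjusted limma p under 0.05, 5 of 11 and 2 of 7 of their tested markers were higher and 0 lower. The share of all tested genes at that level is not given here. The mean over 11 markers of plasmacytoid dendritic cells, a list without Bst2 and Irf7, was 8.0 to 8.30 in menin-deficient and 7.66 to 7.96 in control arrays, and 2 of 11 rose, Ccr9 by 1.65 and Atp1b1 by 0.30. Siglech, a defining marker of that cell, measured 6.75, 7.26, 6.81 and 7.89 in menin-deficient arrays, against 6.73, 5.29, 6.17 and 5.83 in control arrays. The groups of Siglech did not overlap (difference 1.17, adjusted p = 0.0621), nor did those of Tlr7, another marker of the list (difference 1.13, adjusted p = 0.0546). Of 10 NK cell markers tested 3 rose (Ncr1, Nkg7 and Gzmb), with a mean over 11 of 5.78 to 6.66 in menin-deficient and 5.22 to 5.58 in control arrays, and Ncr1, a defining marker, measured 4.33 to 4.81 in menin-deficient and 2.91 to 3.73 in control arrays. Of 9 T cell markers tested 5 rose, with a mean over 14 of 5.38 to 5.51 in menin-deficient and 4.68 to 4.90 in control arrays, while Cd3e, a defining marker, was at the lowest value on all 8 arrays. Thy1 averaged 9.89 ± 0.291 in menin-deficient and 7.24 ± 0.579 in control arrays, and Lat averaged 10.70 ± 0.297 in menin-deficient and 8.93 ± 0.384 in control arrays (SD, n = 4 each). Cd28, Cd5 and Cd3g differed by 0.98, 1.33 and 0.78, and none of these 5 genes overlapped between the groups. The control arrays of Cd28 lay near the floor, at 2.49 to 2.51, so its difference is approximate. The other tested T cell markers, Zap70, Cd8a, Bcl11b and Cd2, differed by 0.88, 0.34, 0.061 and 0.044 and did not pass. Of 12 monocyte and macrophage markers 4 rose, with a mean of 7.96 to 9.19 in menin-deficient and 8.11 to 8.40 in control arrays. Ccr2, Mpeg1, Lyz2 and Cd68 rose by 0.60, 0.84, 0.77 and 0.66, all but Cd68 without overlap. Csf1r, which did not pass, measured 7.45 to 9.15 in menin-deficient and 7.86 to 8.23 in control arrays. Of conventional dendritic cell markers 1 of 7 rose, with a mean over 9 of 5.33 to 5.69 in menin-deficient and 5.18 to 5.29 in control arrays. Of 11 neutrophil markers none passed by limma, with 1 at an unadjusted p under 0.05 and a mean of 9.01 to 9.96 in menin-deficient and 8.85 to 9.27 in control arrays. Of 7 erythroid markers none passed, with 0 at an unadjusted p under 0.05 and a mean over 8 of 6.30 to 7.05 in menin-deficient and 6.39 to 7.19 in control arrays. The part of such cells in the rise of interferon genes was not tested.

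Among the 4 receptor genes only Ifngr1 passed the test, beside 16.2% of all tested genes that rose. Ifngr1, the ligand-binding chain of the type II interferon receptor, measured 12.27, 12.43, 12.48 and 12.43 in menin-deficient replicates 1 to 4, against 12.15, 12.15, 12.11 and 12.03 in control replicates 1 to 4. The groups did not overlap, but the difference was small, 0.29 (SE 0.056, adjusted p = 0.0137), and the call was lost after centring (adjusted p = 0.147). Ifngr2, the signalling chain of the same receptor, measured 12.50, 11.85, 12.63 and 10.64 in menin-deficient arrays, against 12.20, 12.14, 11.94 and 11.08 in control arrays. It was lowest in replicate 4 of both groups, which overlapped. Its sign turned after centring, and its 95% interval of -1.07 to 1.20 leaves changes of 2-fold in either direction undecided. Ifnar1 measured 9.52, 9.75, 9.64 and 9.72 in menin-deficient arrays, against 9.61, 9.02, 9.36 and 9.46 in control arrays, and control replicate 1 lay within the menin-deficient range (difference 0.29, adjusted p = 0.144). Ifnar2 measured 11.52, 11.75, 12.04 and 11.79 in menin-deficient arrays, against 11.35, 11.55, 11.87 and 11.36 in control arrays (difference 0.24, adjusted p = 0.295). Probe sets of both type I receptor chains disagreed in sign. A dimmer set of Ifnar1 differed by -0.17, and an _x_at set of Ifnar2, a kind that can match several transcripts, by -0.50. The remaining Ifnar2 set differed by 0.29, without overlap, and none of these sets passed the threshold over all probe sets.

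Irf7 and Irf1 rose among the STAT and IRF factors, and Stat2 and Irf9 did not pass. Irf7, the factor that amplifies type I interferon production, measured 9.59, 10.30, 9.90 and 9.57 in menin-deficient arrays, against 8.70, 8.95, 8.72 and 8.60 in control arrays. Every menin-deficient array was above every control array, by 2.14-fold on average (difference 1.10, SE 0.17, adjusted p = 0.00754). Irf1, a factor induced most strongly by type II interferon, measured 12.82, 13.11, 13.23 and 13.07 in menin-deficient arrays, against 12.37, 12.65, 12.53 and 12.38 in control arrays, again without overlap (1.49-fold, adjusted p = 0.0108). Stat2 measured 6.83, 6.98, 7.36 and 7.15 in menin-deficient arrays, against 6.41, 6.32, 7.07 and 6.73 in control arrays. Control replicate 3 stood within the menin-deficient range of Stat2 (difference 0.45, adjusted p = 0.136). Irf9, the DNA-binding partner of Stat2, measured 11.14, 11.59, 10.84 and 11.31 in menin-deficient arrays, against 11.40, 11.08, 10.83 and 11.11 in control arrays. The groups of Irf9 overlapped almost fully (difference 0.12, adjusted p = 0.682), and the sign of its difference turned after centring.

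**Figure D3:**
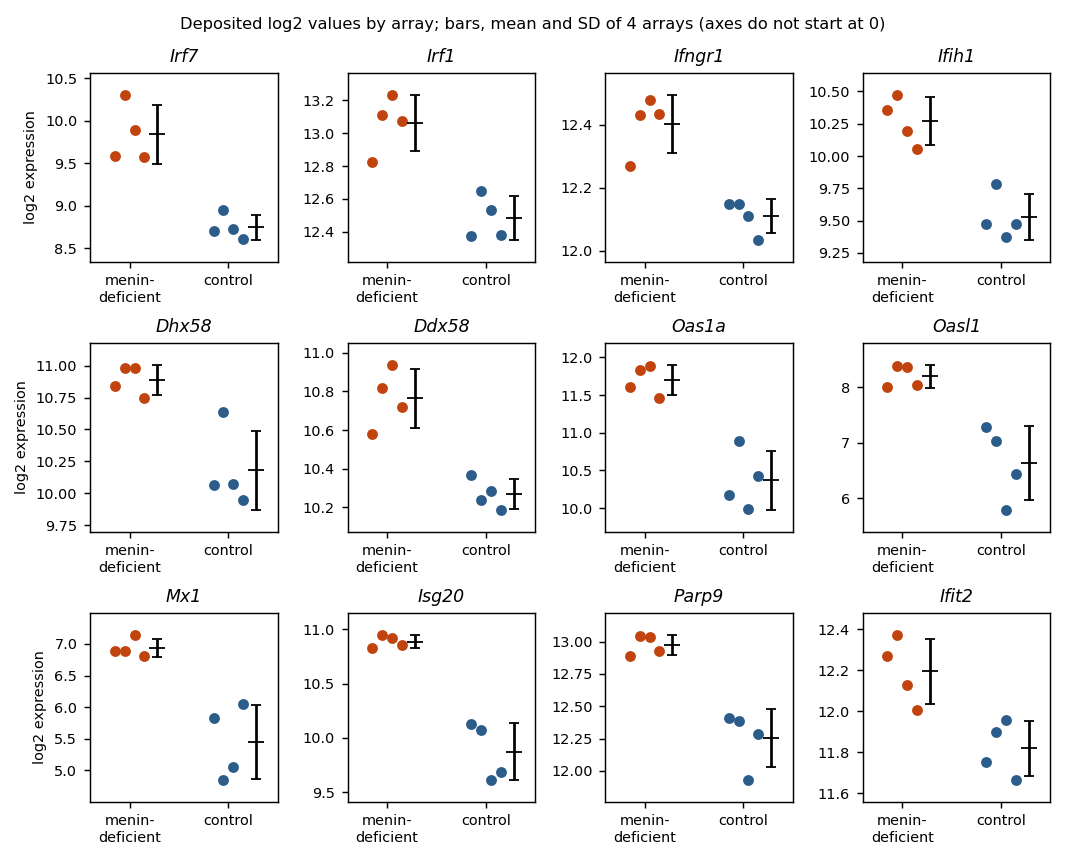
Deposited log2 expression values of 12 interferon genes that rose, in the 4 menin-deficient (left) and 4 control arrays (right) of each panel, with mean and SD beside the points. Panels have axes of their own that do not start at 0. No panel shows overlap between the groups.

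All 3 cytoplasmic RNA sensors of the RIG-I family rose. Ifih1, which encodes MDA5, a sensor of long double-stranded RNA, measured 10.36, 10.47, 10.19 and 10.06 in menin-deficient arrays, against 9.48, 9.78, 9.37 and 9.47 in control arrays (1.67-fold, adjusted p = 0.00803). Dhx58, which encodes their regulator LGP2, measured 10.84, 10.98, 10.98 and 10.75 in menin-deficient arrays, against 10.06, 10.64, 10.07 and 9.95 in control arrays (1.63-fold, adjusted p = 0.0201). Control replicate 2 of Dhx58 came close to the menin-deficient arrays, and the call was lost without control replicate 1, without menin-deficient replicate 2 and in female mice alone, with adjusted p up to 0.195. Ddx58, which encodes RIG-I, measured 10.58, 10.82, 10.94 and 10.72 in menin-deficient arrays, against 10.37, 10.24, 10.28 and 10.19 in control arrays (1.41-fold, adjusted p = 0.00877). For Ddx58 the dimmer probe sets gave 0.43 and 0.40, with overlap between groups.

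Zbp1, Eif2ak2 and Adar did not pass the test. Eif2ak2 encodes PKR, a kinase that halts translation on double-stranded RNA, and measured 11.05, 10.74, 10.69 and 10.90 in menin-deficient arrays, against 10.24, 10.34, 10.56 and 10.67 in control arrays. Its groups did not overlap, and its difference of 0.39 (adjusted p = 0.0569) stood just outside the threshold, with its 2 other probe sets at 0.60 and 0.69. Zbp1, a sensor of left-handed nucleic acid, averaged 7.09 ± 0.346 in menin-deficient and 6.59 ± 0.235 in control arrays (SD, n = 4 each, adjusted p = 0.110). Adar, the enzyme that edits adenosine in double-stranded RNA and so hides self RNA from MDA5, was 1 of 3 genes with a negative difference. It measured 9.67, 9.61, 9.50 and 9.75 in menin-deficient arrays, against 9.91, 9.97, 9.83 and 9.75 in control arrays, with replicate 4 of each group almost equal (difference -0.23, adjusted p = 0.0550). After centring it was called lower (-0.36, adjusted p = 0.0348), but 2 dimmer probe sets gave 0.20 and 0.019.

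The OAS family encodes oligoadenylate synthetases, which sense double-stranded RNA and activate RNase L, and related proteins without that activity. Of its 4 tested members, 3 rose, beside 16.2% of all tested genes. Oasl1, an OAS-like protein known in mice to hold back translation of Irf7, measured 7.99, 8.37, 8.37 and 8.04 in menin-deficient arrays, against 7.28, 7.03, 5.79 and 6.44 in control arrays. It had the largest difference of the 39 genes, 1.56 (SE 0.32, 2.94-fold, adjusted p = 0.0166), and its control arrays were spread over more than 1 log2 unit. Oas1a measured 11.61, 11.84, 11.89 and 11.46 in menin-deficient arrays, against 10.17, 10.89, 9.99 and 10.42 in control arrays (2.51-fold, adjusted p = 0.00679). Its paralogue Oas1g, with the same ISRE pair above, had no probe set of its own, and whether the Oas1a set also reads Oas1g was not tested. Oasl2 measured 3.55, 4.60, 4.15 and 4.84 in menin-deficient arrays, against 3.41, 3.41, 2.73 and 2.83 in control arrays, not far above the floor of 2.08, so that its 2.28-fold rise (adjusted p = 0.0359) is approximate. The Oasl2 call was lost under 10 of 21 alternatives, among them leaving out any control array or any of menin-deficient replicates 2, 3 and 4. The Oasl1 call was lost without menin-deficient replicate 2. Oas2 read 4.59 on menin-deficient replicate 3 and 3.73 to 3.76 on every other array (adjusted p = 0.482), and the Oas3 probe set lay at or within 0.01 of the lowest value on all 8 arrays and was not tested.

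IFIT proteins bind viral RNA and block its translation. Ifit2 measured 12.27, 12.37, 12.13 and 12.01 in menin-deficient arrays, against 11.75, 11.90, 11.96 and 11.67 in control arrays, a 1.30-fold rise (adjusted p = 0.0375) that was lost under 12 of 22 alternatives. These include leaving out any array but menin-deficient replicate 4 and control replicate 3. Ifit1 measured 3.34, 3.29, 2.81 and 2.60 in menin-deficient arrays, against 2.10, 2.09, 2.14 and 2.10 in control arrays. The control arrays of Ifit1 sat at background, and its difference of 0.91 (adjusted p = 0.0128) is set against that floor. The call of Ifit1 held under all 21 alternatives that gave it a value, with adjusted p from 0.00559 to 0.0470. The 60th percentile filter left Ifit1 out. Its control arrays varied little near the floor (SD 0.023), so the stability of this call is hard to read. Ifit3 averaged 8.98 ± 0.511 in menin-deficient and 8.23 ± 0.344 in control arrays (SD, n = 4 each). The groups of Ifit3 overlapped, because menin-deficient replicate 4 at 8.36 lay below control replicate 2 at 8.69, and it did not pass (adjusted p = 0.108), although its promoter carried 2 ISRE copies like that of Ifit1.

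Of 8 further effectors tested, 4 rose, beside 16.2% of all tested genes. Isg20, an RNA exonuclease, had the lowest p of the 39 genes, with 10.83, 10.95, 10.92 and 10.85 in menin-deficient arrays, against 10.13, 10.07, 9.61 and 9.69 in control arrays (2.01-fold, SE of the log2 difference 0.13, adjusted p = 0.00374). Mx1, a dynamin-like GTPase that restricts influenza virus, measured 6.89, 6.88, 7.14 and 6.81 in menin-deficient arrays, against 5.83, 4.85, 5.06 and 6.05 in control arrays (2.80-fold, adjusted p = 0.0127). The menin-deficient arrays of Mx1 lay close together and the control arrays were spread. Mx2 measured 3.28, 3.67, 3.00 and 2.68 in menin-deficient arrays, against 2.28, 2.24, 2.21 and 2.24 in control arrays, which were near the floor (difference 0.92, adjusted p = 0.0184). The control arrays of Mx2 varied little there (SD 0.029), so its p is as hard to read as that of Ifit1. Ifi27, a small hydrophobic membrane protein, was 14.10 or 14.11 on every menin-deficient array, against 13.69, 13.86, 13.20 and 13.54 in control arrays (1.44-fold, adjusted p = 0.0301). Its other probe set rose too, by 0.81 on the log2 scale (adjusted p = 0.0329 over all probe sets). The gene's call was lost under 11 of 22 alternatives, among them leaving out any array but control replicates 2 and 3.

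The other 4 effectors did not pass. Bst2, or tetherin, which holds budding virions at the cell surface and also marks plasmacytoid dendritic cells, measured 12.72, 13.23, 12.64 and 12.72 in menin-deficient arrays, against 11.61, 12.58, 11.43 and 12.15 in control arrays. The lowest menin-deficient array of Bst2, at 12.64, lay just above control replicate 2, at 12.58, and its difference of 0.88 had an adjusted p of 0.0592. Rsad2, or viperin, an enzyme known in human cells to make a chain-terminating nucleotide, averaged 9.57 ± 0.395 in menin-deficient and 9.13 ± 0.444 in control arrays, where replicate 2 stood at 9.80 (adjusted p = 0.299). Cmpk2, its neighbour on chromosome 12 and a mitochondrial nucleotide kinase, averaged 8.89 ± 0.329 in menin-deficient and 8.87 ± 0.330 in control arrays (SD, n = 4 each, 95% interval of the difference -0.49 to 0.52, sign turned after centring). Ifi35 differed by -0.18 (adjusted p = 0.0850) on an _s_at probe set and by -0.095 on an _x_at set, whereas its remaining probe set differed by 0.39 with no overlap between groups (adjusted p = 0.0889 over all probe sets).

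Of 6 tested genes in the ISG15, ubiquitin and ADP-ribose group, 1 rose, near the share of all tested genes that rose (16.2%). The median difference of the group was 0.21, beside 0.11 over all tested genes. Parp9, an ADP-ribosyltransferase-like protein that works in a complex with the ubiquitin ligase Dtx3l, measured 12.89, 13.04, 13.04 and 12.93 in menin-deficient arrays, against 12.41, 12.39, 11.93 and 12.29 in control arrays (1.65-fold, adjusted p = 0.00685). The call of Parp9 held under all 22 alternatives, with adjusted p from 0.00296 to 0.0431. Dtx3l itself, which lies next to Parp9 on chromosome 16, measured 12.73, 12.87, 13.12 and 12.92 in menin-deficient arrays, against 12.44, 12.74, 13.15 and 12.54 in control arrays. The groups of Dtx3l overlapped, with the highest value in control replicate 3, where Parp9 was lowest (difference 0.19, adjusted p = 0.448). Usp18, the protease that removes ISG15 and dampens Ifnar2 signalling, measured 8.93, 9.58, 8.75 and 8.70 in menin-deficient arrays, against 8.34, 8.52, 7.05 and 7.99 in control arrays. Its groups did not overlap and its difference was 1.01, but its SE was 0.36 and it did not pass (adjusted p = 0.0860). Trim25, the ubiquitin ligase that acts on RIG-I, differed by 0.17, and Parp14 by 0.23 (adjusted p = 0.143 and 0.166). Trim30a differed by -0.31 on its brightest probe set (adjusted p = 0.248) and was higher by 0.23 on the other (adjusted p = 0.0422 over all probe sets). Isg15 had no probe set of its own, since its only set is annotated to another gene as well, and Ifi44 was not analysed here.

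Rtp4, Xaf1 and Lgals3bp rose in the remaining group. Rtp4, known in mice as a brake on the interferon response, measured 10.08, 10.24, 10.01 and 9.83 in menin-deficient arrays, against 9.36, 9.62, 8.36 and 8.97 in control arrays (1.95-fold, adjusted p = 0.0415). Xaf1, a partner of the apoptosis inhibitor XIAP, measured 9.65, 9.75, 9.61 and 9.20 in menin-deficient arrays, against 9.02, 9.12, 8.64 and 8.78 in control arrays (1.58-fold, adjusted p = 0.0238). Lgals3bp, a secreted galectin-binding glycoprotein, measured 6.49, 6.90, 6.34 and 6.44 in menin-deficient arrays, against 5.62, 6.27, 5.20 and 5.16 in control arrays (1.97-fold, adjusted p = 0.0385). These 3 calls were among the least stable, lost under 13, 8 and 13 alternatives. Without any 1 of menin-deficient replicates 1 to 3 or control replicate 4 none of the 3 held, and Rtp4 and Lgals3bp were also lost without menin-deficient replicate 4 or control replicate 1, and Lgals3bp without control replicate 3. Sp100, a nuclear body protein, averaged 7.92 ± 0.115 in menin-deficient and 7.82 ± 0.388 in control arrays (SD, n = 4 each, adjusted p = 0.761), and its sign turned after centring.

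Mice of the same group also differed in these genes. Menin-deficient replicate 2 was the highest of its group for 17 of the 39 genes and the lowest for 1, whereas menin-deficient replicates 4 and 1 were the lowest for 16 and 15. Control replicate 2 was the highest of the controls for 19 genes, and control replicate 3 was the lowest for 19. Over the 19 genes that rose, the median deviation from the group mean was 0.18 in menin-deficient replicate 2 and -0.14 in menin-deficient replicate 4, and 0.21 in control replicate 2 and -0.25 in control replicate 3. Over all tested genes the same medians lay between -0.017 and 0.0088 on the 8 arrays. By Xist and Eif2s3y, 2 menin-deficient mice (replicates 1 and 2) and 1 control mouse (replicate 3) were male. The control array with the lowest interferon genes was thus the male one, while a male menin-deficient array was the highest of its group. With sex as a covariate 19 of the 39 genes rose, 18 of them among the 19 rises without it (14.9% of all genes rose). In female mice alone, 2 menin-deficient against 3 control, Ifit1 and Parp9 rose (4.19% of all genes rose), and the median difference of the 39 genes was 0.46. Without menin-deficient replicate 2, the array with the highest interferon genes, 11 of the 39 rose (8.79% of all genes rose), all among the 19, with a median of 0.48.

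**Figure D4:**
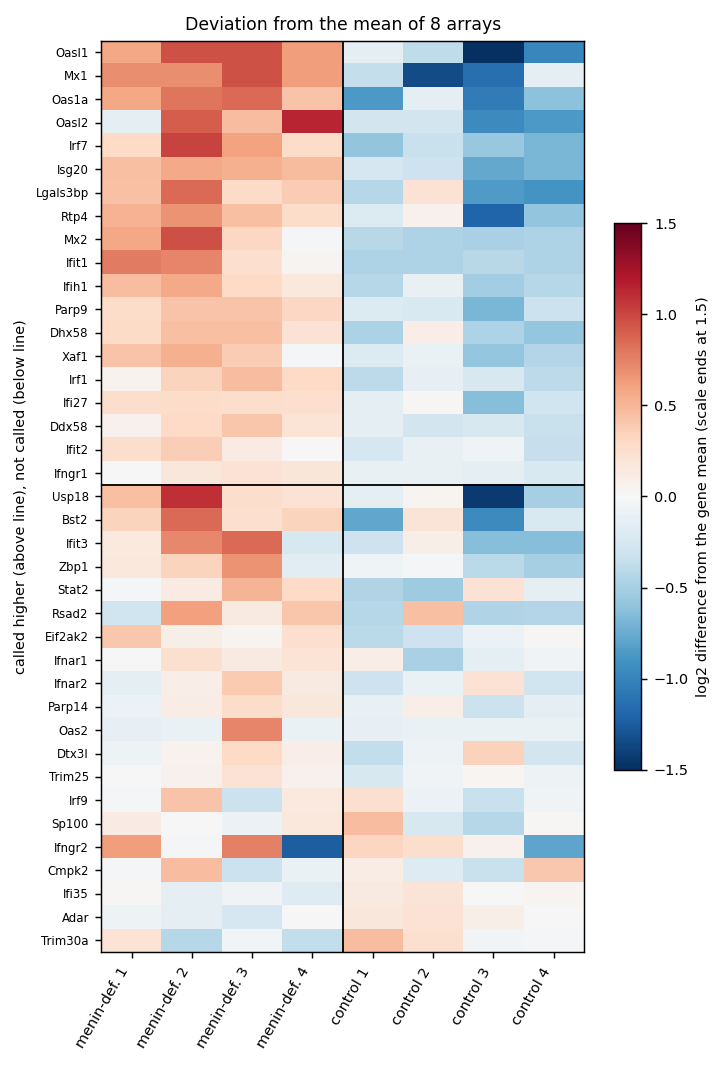
Deviation of each array's log2 value from the gene's mean over 8 arrays, for the 39 tested interferon genes, with menin-deficient arrays left of the vertical line and control arrays right of it. Genes above the horizontal line are the 19 that rose, ordered by difference. In the rows of Irf7, Mx2 and Usp18 the deepest red is in menin-deficient replicate 2, and in those of Oasl1, Rtp4 and Usp18 the deepest blue is in control replicate 3.

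In a fit of single probe sets, 19 of 64 probe sets of the interferon genes were higher and 0 lower, compared with 9.34% and 4.87% of all 26790 probe sets tested. Differences were positive for 55 of the 64. Counted by gene they were positive for 36 of the 39 interferon genes, beside 7844 of all 11885 tested genes. Of 18 genes with several tested probe sets, 8 had differences of both signs: Adar, Ifi35, Ifnar1, Ifnar2, Parp14, Stat2, Trim30a and Zbp1. None of these 8 was among the 19 rises. Of those rises only Ddx58, Ifi27, Rtp4 and Xaf1 had more than 1 tested probe set, so the others could not show both signs. Ifi27 alone had more than 1 probe set past the threshold. Rtp4 and Lgals3bp, among the 19 rises, had none (lowest adjusted p = 0.0547 and 0.0509 over all probe sets by limma). Trim30a, not among the 19, had 1. Parp14 showed the widest gap, with 0.23 on its brightest set and -0.73 on a dimmer one, where the groups did not overlap (adjusted p = 0.104 over all probe sets).

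**Figure D5:**
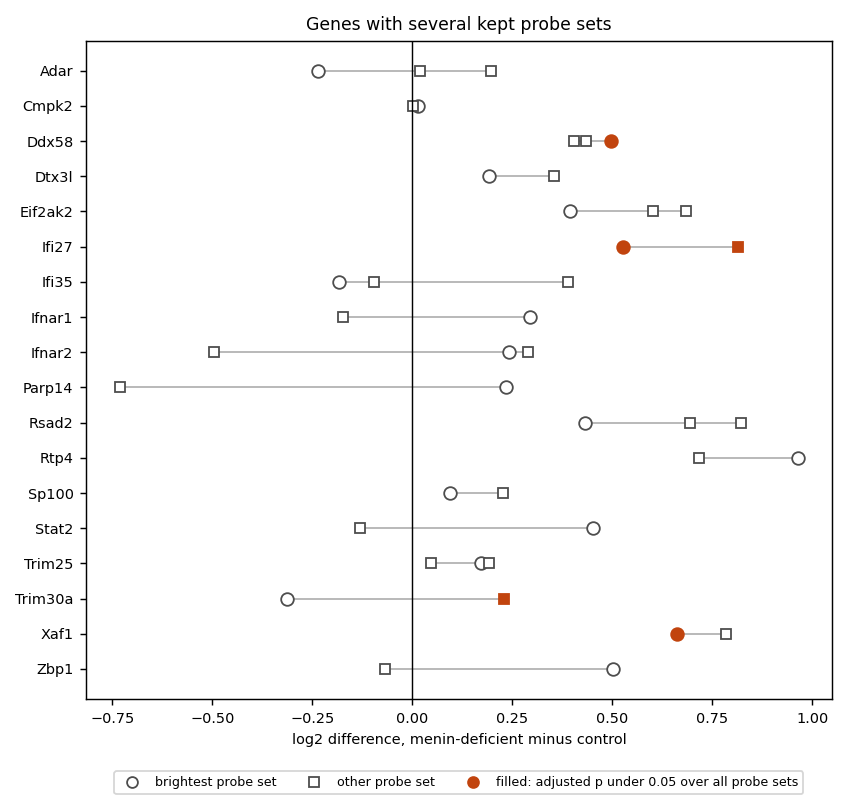
Log2 differences, menin-deficient minus control, of each tested probe set for the 18 interferon genes with more than 1. Circles are the brightest set, squares the others, and filled points have an adjusted p under 0.05 over all probe sets. Lines of 8 genes cross 0, and those of Ddx58, Eif2ak2, Ifi27, Rsad2, Rtp4 and Xaf1, for example, lie wholly right of it.

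Other parts of the interferon pathway were examined by lists. Of 10 interferon ligand genes with a probe set of their own, 3 were tested and none passed, and 6, Ifnb1 among them, lay at or under the low-value filter on all 8 arrays. None of the 3, Ifng, Ifna5 and Ifnz, had an unadjusted limma p under 0.05. Ifng averaged 4.49 ± 1.02 in menin-deficient and 5.58 ± 0.177 in control arrays (SD, n = 4 each). Its groups did not overlap, with every menin-deficient array below every control array (difference -1.09, limma adjusted p = 0.145). In the JAK-STAT list of transducers and brakes, 1 of 15 rose and 0 fell: Ifnlr1, the type III interferon receptor chain, averaged 7.10 ± 0.412 in menin-deficient and 5.57 ± 0.201 in control arrays (SD, n = 4 each, difference 1.53, adjusted p = 0.00519). Among 7 other IRF factors Irf5 rose (difference 0.42, adjusted p = 0.0235) and Irf2, which competes with Irf1 for its sites, fell by 0.67 on the log2 scale (adjusted p = 0.0170). In the list for induction of interferon, 5 of 17 rose and 0 fell, beside 16.2% and 5.17% of all tested genes. Ikbke, a kinase of Irf3 and Irf7, averaged 8.17 ± 0.297 in menin-deficient and 7.22 ± 0.215 in control arrays (SD, n = 4 each, adjusted p = 0.0110), and Ddx41, Zcchc3 and Myd88 rose by 0.42, 0.68 and 0.40.

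Of 53 tested interferon-stimulated genes outside the 43, 15 rose and 2 fell, beside 16.2% and 5.17% of all tested genes. Their median difference was 0.23, and that of all tested genes 0.11. Tdrd7 averaged 10.95 ± 0.131 in menin-deficient and 10.07 ± 0.0790 in control arrays (SD, n = 4 each, difference 0.87, adjusted p = 0.00139). Parp12, a mono-ADP-ribosyltransferase, and Rnf213, a large ubiquitin ligase, rose by 0.90 and 0.87 (adjusted p = 0.00397 and 0.00526). Slfn5 differed by 2.07 (adjusted p = 0.00203) from control arrays close to the floor, at 2.28 to 2.33. Samhd1, which lowers cellular nucleotide pools, and Mndal, an IFI200 family member, fell by 0.54 and 0.27 (adjusted p = 0.0394 and 0.0361).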

How the data were processed

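Per the labels' protocols, total RNA was amplified, labelled with biotin and hybridised to Affymetrix mouse arrays. The authors deposited log2 values as 1 table of 8 arrays, and the scale was inferred from the values, which run from 2.08 to 17.4. MAS5 and GCRMA appear in the submitters' processing notes, which do not say which of them gave this table. Of the probe sets on an array, 36.1% to 36.7% were at its lowest value, so folds near that floor are approximate.

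Groups and replicate numbers came from sample titles. By platform annotation 34945 of 45037 probe sets have 1 gene symbol, and only these were named. A probe set had to exceed the 40th percentile of its own array on 4 or more of the 8 arrays, and the brightest by mean represented each gene. The groups were fitted without covariates by limma 3.58.1 in R 4.3.3 (lmFit, eBayes), and p-values were adjusted by Benjamini-Hochberg over all 11885 genes. The fit was tested on simulated data. Plots used matplotlib 3.10.9. Having 4 mice in a group limits the precision, and the limma p-values set each difference between groups against the spread between mice of a group. Alternatives covered scaling, filters, probe set choice, variance models, a replicate block, sex and leaving out each array.

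The genes, lists and tests were chosen with earlier results of these data known. All 43 genes are accounted for, with values on each array for receptors, STAT and IRF factors and called genes, and list genes are named by lowest p, up to 4 a list, beside fixed defining markers. Other genes not past the threshold, genes that fell in the lists, and Enpep were described after their values were seen.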

Additional observations from a re-analysis of the deposited data

Results flagged for a closer look

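A single array stood apart from the other 3 of its group in 3 of 80 groups examined (40 genes, both groups), by Dixon's test at the 95% level. Chance flags about 1 group in 20. Oas2 was 4.59 in menin-deficient replicate 3, against 3.74 to 3.76 in the other menin-deficient arrays. Bst2 was 13.23 in menin-deficient replicate 2, against 12.64 to 12.72 in the others. Rsad2 was 9.80 in control replicate 2, against 8.90 to 8.92 in the other controls.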

How the results depend on the processing

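Between 11 and 18 interferon genes rose when 1 array was left out in turn, with 11 to 17 of them among the 19, and the lowest count without menin-deficient replicate 2 (8.79% of all genes rose then). In female mice alone 2 rose. Counts of interferon genes past the threshold were the same, since no gene fell in those fits. Interferon genes lower numbered 2 after centring on the median tested gene (Adar and Ifi35), 1 with array weights (6.90% of all genes) and 2 at a threshold of 0.10 (7.29%). All changed genes numbered 639 in female mice alone, 1673 with no filter, 1328 with the replicate block, and 1413 to 2269 when 1 array was left out, against 2536. Without a filter 10 probe sets of the interferon genes were past the threshold (4.3% of all probe sets), against 19 (14.2%). In female mice alone Men1 differed by -1.27 (adjusted p = 0.0699). No called gene changed sign under any of the 22 alternatives, and the median of the interferon genes exceeded that of all tested genes by 0.34 to 0.53. In 5 of the 22 the gap could not move, because the differences stay as they are or shift alike.

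Replicate numbers were treated as names. Deviations of same-numbered arrays correlated between -0.31 and 0.046 over all tested genes, and no menin-deficient array correlated best with its own number. Over the 39 interferon genes alone the 4 correlations were 0.18, 0.44, 0.33 and 0.37. With the replicate block 13 interferon genes rose (8.28% of all genes), 11 of them among the 19. Mx1, Mx2, Oasl1, Oasl2, Ifi27, Ifit2, Ifngr1 and Rtp4 lost their call with the block. Ifit1, Mx2, Oasl2 and Lgals3bp were not tested with the 60th percentile filter, where 18 of 34 rose (19.7%). For genes near the lowest value, the floor limits what can be seen. The same value recurred on several arrays for Oas2 (3.76 on 4 arrays), Oasl2 (3.41 on 2), Ifit1 (2.10 on 2) and Mx2 (2.24 on 2), so their differences are approximate.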
